A study of Mus musculus with 4 samples.

Results

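The 10 genes described here encode subunits of the transcription factor NF-κB, its IκB inhibitors, and proteins that act back on the signalling pathway. They were *Nfkb1*, *Nfkb2*, *Rela*, *Relb*, *Nfkbia*, *Nfkbib*, *Nfkbie*, *Tnfaip3*, *Birc3* and *Traf1*, taken by gene symbol from the 18373 genes of the deposited expression table. All 10 were found once and passed the filter on low counts. The data were RNA-seq of primary mouse liver sinusoidal endothelial cells (LSECs), the fenestrated endothelial cells that line the hepatic sinusoids. The cells came from livers of 8-week-old Balb/c mice, were taken with beads against CD146, were cultured for 24 h and were then given siRNA for 48 h. A control siRNA (NC, 2 libraries) was compared with siRNA against *Airn* (si*Airn*, 2 libraries), a long noncoding RNA of the imprinted *Igf2r* locus. The labels speak of 2 separate si*Airn* in the treatment and title the libraries siAirn1_1 and siAirn1_2, without a key that ties these names to an siRNA. The replicates are called biological without saying that they came from different animals, so the p-values measure only the spread between these libraries.

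*Airn* itself had 7 and 3 counts in the NC libraries and 11 and 9 counts in libraries labelled si*Airn*, so it was not lower there. At these few counts it did not pass the filter and was not tested, and the groups are called by their labels throughout. Library totals ran from 17308382 to 18371959 estimated counts. Expression is given as CPM (counts relative to the library total after TMM normalisation) when libraries are compared, and as FPKM (fragments per kilobase of transcript, scaled to library size) when genes are compared with each other. Changes were tested by the quasi-likelihood test of edgeR (two-sided), with Benjamini-Hochberg adjustment of p-values across all 13628 genes tested.

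NF-κB is a family of dimers built from Rel proteins. In resting cells the dimers are held in the cytoplasm by IκB proteins, and when a receptor for TNF, IL-1 or a microbial ligand is engaged, the IκB kinase (IKK) complex phosphorylates IκB, which is then degraded, so that the dimers enter the nucleus. In endothelium this is the classical route to leukocyte adhesion molecules and chemokines. Several genes of the pathway are themselves activated by NF-κB, among them those for IκBα and for the deubiquitinating enzyme A20, and their products switch the signal off again.

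Because of this feedback, the promoters of the members were searched for the binding sequence of NF-κB. RefSeq promoters (GRCm38.p6, 250 bases before to 50 bases after the start site) were matched by symbol for 8 of the 10 members, all except *Nfkb1* and *Relb*. The 10-base κB consensus, read on both strands, was found in promoters of 4 of these 8 members (*Nfkb2*, *Nfkbia*, *Nfkbie* and *Tnfaip3*), against 5.14% of the 27025 genes in the same table and 4.51% of its 32851 promoters. A stricter form, with T at each of the 3 positions before the final CC, was found in *Nfkb2*, *Nfkbia* and *Tnfaip3*, against 0.921% of all genes. *Rela*, *Nfkbib*, *Birc3* and *Traf1* held no match, which says only that these letters were not in this window. The matches are shown with the 10 bases on either side, read 5′ to 3′ along the strand of the gene, with the match in capitals.
*Nfkbia*: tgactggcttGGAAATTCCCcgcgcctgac
*Tnfaip3*, nearer match: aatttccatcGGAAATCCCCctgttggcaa
*Tnfaip3*, farther match: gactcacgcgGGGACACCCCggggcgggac
*Nfkb2*, first start site, farther match: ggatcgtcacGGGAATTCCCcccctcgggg
*Nfkb2*, first start site, nearer match: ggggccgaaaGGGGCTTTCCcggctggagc
*Nfkb2*, second start site: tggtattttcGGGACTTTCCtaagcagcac
*Nfkbie*: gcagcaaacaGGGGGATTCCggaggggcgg

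The *Nfkbia* sequence lies on the minus strand at chr12:55492657-55492686, with its match at positions -29 to -20 from the start site. The nearer *Tnfaip3* match lies on the minus strand at chr10:19015403-19015432 (match at -12 to -3) and the farther one at chr10:19015516-19015545 (match at -125 to -116). For *Nfkb2*, on the plus strand, the matches at the first start site lie at chr19:46304688-46304717 (match at -39 to -30, overlapping a further match 1 base downstream) and chr19:46304716-46304745 (match at -11 to -2). The match near the second start site of *Nfkb2* lies at chr19:46305695-46305724, at positions 10 to 19 after that start and at -225 to -216 from the third. A further match, at -236 to -227 from the second start site, is not printed. The *Nfkbie* sequence lies on the plus strand at chr17:45555584-45555613, with its match at -106 to -97. The nearer *Tnfaip3* match, the *Nfkbia* match, the nearer *Nfkb2* match and the one near its second start site are of the stricter form. No measurement of binding was used here, so these matches describe the sequence alone.

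Across the 10 members, 2 changed between the groups: *Tnfaip3* was higher and *Nfkbib* was lower in libraries labelled si*Airn*. These 2 of 10 compare with 16.8% of all genes tested (8.27% higher and 8.56% lower), so the share of members that changed was near that of the genes at large. The 4 subunits, *Nfkbia*, *Nfkbie*, *Birc3* and *Traf1* did not pass the test, and 4 members had a positive and 6 a negative fitted difference. The median log2 fold change of the members was -0.08, beside 0.00 over all genes tested. The groups did not overlap for 7 of the 10 members, against 62.7% of all genes. By the criterion of a fold change over 1.4 with an unadjusted p under 0.05, which the study used, 0 of 10 members passed by edgeR, against 9.96% of all genes, while an unadjusted p under 0.05 alone was reached by 3 members (*Relb*, *Nfkbib* and *Tnfaip3*), against 34.0%. DESeq2 called the same 2 members as edgeR, against 9.67% of the 18014 genes with a count in any library. These include genes to which DESeq2 gave no adjusted p, so this share is lower than one over genes with an adjusted p. With limma on log2(FPKM + 1), *Tnfaip3* alone was called (against 14.9% of the 11667 genes in that fit), with *Nfkbib* at -0.33 (adjusted p = 0.0534).

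**Figure D1:**
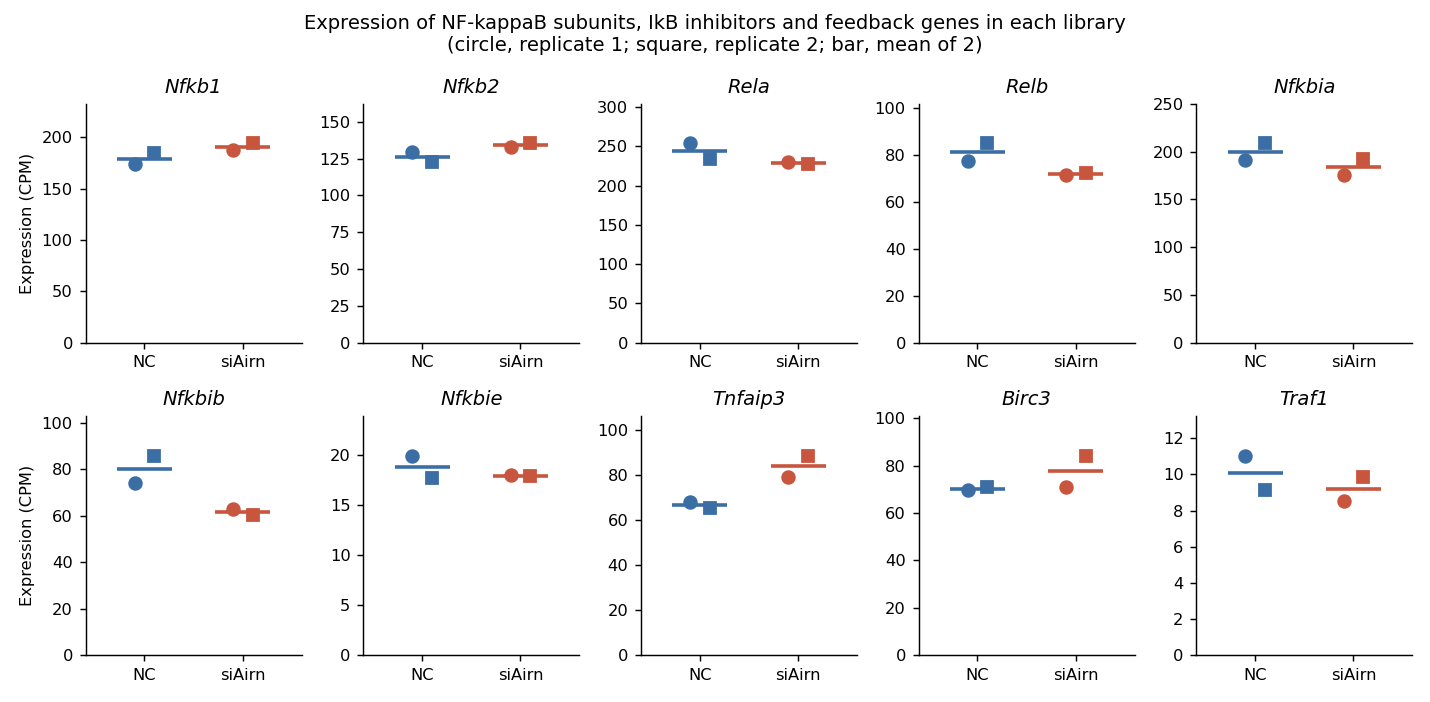
Expression of each member in CPM (vertical axes start at 0) in the 2 NC and 2 si*Airn* libraries, with circles for replicate 1, squares for replicate 2 and bars for the mean. *Nfkbib* sits lower and *Tnfaip3* higher in both si*Airn* libraries. The points of the other members lie close together or overlap, except that si*Airn* replicate 2 of *Birc3* stands above the rest.

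Changes between these groups ran with the base composition of transcripts. Across the 12905 genes with an annotated transcript, the log2 fold change had a Spearman correlation of -0.33 with GC content and of 0.36 with length (a description across genes, which are not independent replicates). Between the replicates of a group, the difference had a correlation with GC content of -0.03 in NC and -0.01 in si*Airn*. *Nfkbib* has a GC-rich transcript (58.8%) and *Tnfaip3* a GC-poor one (47.1%). The 739 genes within 1 percentage point of the GC content of *Nfkbib* had a median log2 fold change of -0.15, and the 1358 genes near that of *Tnfaip3* a median of 0.07. Once GC content and length were corrected for, 0 of 10 members passed the edgeR test at an adjusted p under 0.05, against 7.93% of all genes. At an unadjusted p under 0.05, 2 members then passed (*Nfkb2* and *Nfkbib*), against 28.1%.

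**Figure D2:**
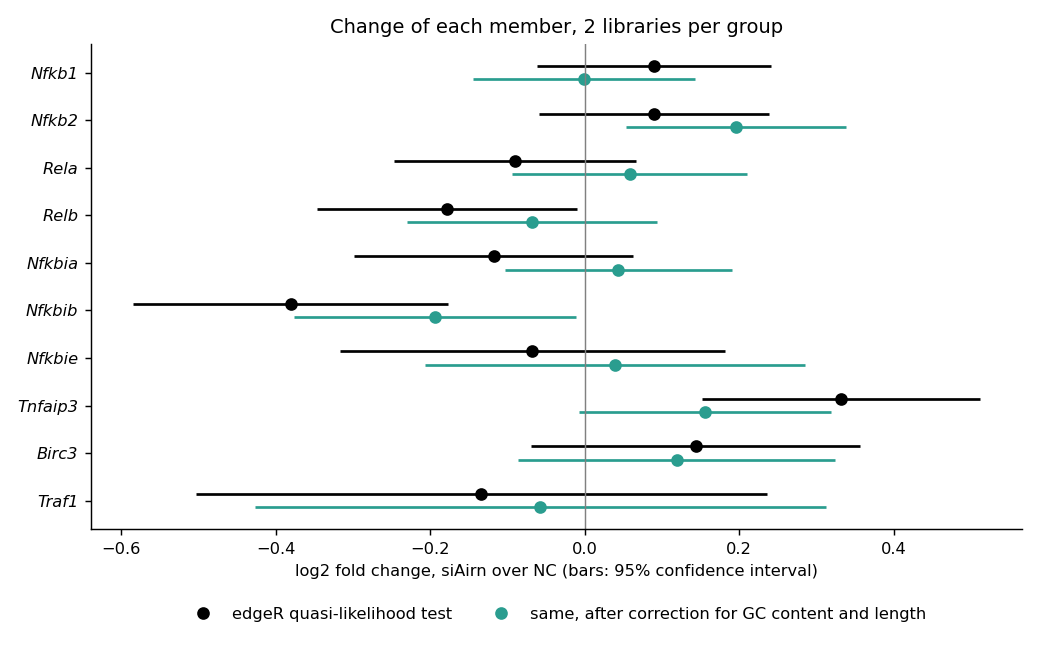
Log2 fold change of each member (horizontal axis, libraries labelled si*Airn* over NC) with its 95% confidence interval, in black by the edgeR test and in green with GC content and length corrected. The intervals of *Nfkbib* and *Tnfaip3* lie clear of 0 in black and move towards 0 in green, and *Nfkb1*, *Rela*, *Nfkbia* and *Nfkbie* change sign.

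Of the subunits, *Rela* encodes p65, the transactivating partner of the classical dimer. It was measured at 254 and 234 CPM in NC and at 230 and 228 CPM in libraries labelled si*Airn*. Both si*Airn* values lay below both NC values, by less than the distance between the NC libraries in the nearer pair. The fold change was 0.940 (95% interval 0.843 to 1.05, adjusted p = 0.381 by edgeR).

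*Nfkb1* encodes p105, the precursor of p50, the DNA-binding partner of p65. Its levels were 174 and 184 CPM in NC and 188 and 194 CPM in libraries labelled si*Airn*. The groups did not overlap, but the nearer values differed by less than the replicates of either group, and the fold change was 1.06 (0.958 to 1.18, adjusted p = 0.362 by edgeR). With GC content and length corrected the log2 fold change of *Nfkb1* was 0.00 to 2 decimals, and that of *Rela* turned from -0.09 to 0.06.

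*Nfkb2* and *Relb* encode the partners of the noncanonical pathway, p100 (processed to p52) and RelB. *Nfkb2* stood at 129 and 123 CPM in NC and 133 and 135 CPM in libraries labelled si*Airn*, a fold change of 1.06 (0.960 to 1.18, adjusted p = 0.357 by edgeR). *Relb* stood at 77.5 and 84.9 CPM in NC and 71.3 and 72.3 CPM in libraries labelled si*Airn*, a fold change of 0.884 (0.787 to 0.993, adjusted p = 0.129 by edgeR, unadjusted p = 0.0406). The partners thus had fitted differences of opposite sign, 0.09 for *Nfkb2* and -0.18 for *Relb* on the log2 scale, and neither passed this test. With the replicate number as a block, *Relb* passed (adjusted p = 0.031 by edgeR) and *Nfkb2* did not (adjusted p = 0.196). The block fit called 4841 of 13628 genes, against 2294 without the block, and the replicate numbers pair nothing in the labels. Without 1 library at a time, the log2 fold change ran from 0.05 to 0.12 for *Nfkb2* and from -0.25 to -0.11 for *Relb*. Corrected for GC content and length, *Nfkb2* stood at 0.20 (0.05 to 0.34, adjusted p = 0.0893 by edgeR) and *Relb* at -0.07 (-0.23 to 0.09, adjusted p = 0.553). Corrected for length alone, with a length estimated from counts and FPKM, *Nfkb2* stood at 0.05 (adjusted p = 0.627 by edgeR) and *Relb* at -0.12 (adjusted p = 0.255). That length is not the one of the longest transcript, so the 2 corrections differ in more than GC content. With the block and the correction for GC content and length together, *Nfkb2* passed (0.20, adjusted p = 0.00379 by edgeR) and *Relb* did not (-0.07, adjusted p = 0.392). That fit called 4070 of 12905 genes. In *Nfkb2*, 11.6% of the exonic bases lie under opposite-strand exons of AC114539.1 and 6.52% under those of *Psd*. Whether the authors' counting used strand is not given in the sources used here, so reads from these stretches cannot be assigned with certainty. *Psd* itself had 1.17 to 3.63 estimated counts per library, beside 2217 to 2406 for *Nfkb2*.

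Summed over the 4 subunits, the level per length was 222 and 216 FPKM in NC and 216 in each library labelled si*Airn*. The sum therefore differed less between groups than between the NC libraries.

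Among the inhibitors, *Nfkbib* was the member that fell. It encodes IκBβ, which is resynthesised more slowly than IκBα after a signal and is known for holding dimers over longer times. The gene lies on the minus strand at chr7:28758251-28767512 (GRCm38). Its estimated counts were 1272 and 1553 in NC and 1136 and 1064 in libraries labelled si*Airn*, which correspond to 74.2 and 85.8 CPM and to 62.8 and 60.1 CPM.

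Both si*Airn* values of *Nfkbib* were lower than both NC values, and the gap between the nearest values was about as large as the distance between the NC libraries. It fell by 23.2% (log2 fold change -0.38, SE 0.09, 95% interval -0.58 to -0.18, adjusted p = 0.0286 by edgeR and 0.0188 by DESeq2). With GC content and length corrected, the log2 fold change was -0.19 (-0.38 to -0.01, adjusted p = 0.160). Fits that left out a library kept 1 in its group, so their spread came from the other group alone. The call was also lost without NC replicate 1 (-0.48, adjusted p = 0.0704), without NC replicate 2 (-0.27, adjusted p = 0.160) and without si*Airn* replicate 2 (-0.35, adjusted p = 0.0632), all by edgeR. It was kept without si*Airn* replicate 1 (-0.41, adjusted p = 0.0251). Calls were lost across the table in the same fits: without NC replicate 1, 40 of 13986 genes (0.286%) were called, without NC replicate 2, 0 of 13913 (0.00%, with 22.3% at an unadjusted p under 0.05), and 10.4% were called when si*Airn* replicate 2 was left out. When si*Airn* replicate 1 was left out, 17.3% were called.

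The locus of *Nfkbib* is shared. Of its 2169 exonic bases, 314 lie under opposite-strand exons of *Ccer2* and 42 under those of *Sirt2*, a NAD-dependent deacetylase. *Ccer2* had a count in 1 library only, and that count was 1. *Sirt2* stood at 144 and 150 CPM in NC and at 123 and 112 CPM in libraries labelled si*Airn* (log2 fold change -0.33, adjusted p = 0.0250 by edgeR), so the neighbour was lower as well. In the same correction *Sirt2* stood at -0.19 (adjusted p = 0.138), where its call was lost as that of *Nfkbib* was. Its part in the *Nfkbib* counts was not tested.

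*Nfkbia*, the gene for IκBα, had the highest level per length of the 10 members in every library. It stood at 191 and 209 CPM in NC and 176 and 193 CPM in libraries labelled si*Airn*, so that the groups overlapped (fold change 0.922, interval 0.813 to 1.04, adjusted p = 0.320 by edgeR). With GC content and length corrected its log2 fold change turned from -0.12 to 0.04.

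*Nfkbie* encodes IκBε, the least abundant of these inhibitors here. Its levels of 19.9 and 17.7 CPM in NC enclosed those of 18 and 17.9 CPM in libraries labelled si*Airn* (fold change 0.954, interval 0.803 to 1.13, adjusted p = 0.688 by edgeR).

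The composition of the inhibitor pool followed from these values. *Nfkbib* made up 29.9% and 31.3% of the summed FPKM of the 3 inhibitors in NC and 28.3% and 25.6% in libraries labelled si*Airn*, and the shares did not overlap. *Nfkbia* made up 66.2% and 65.4% in NC and 67.7% and 70.5% in si*Airn*. The ratio of summed inhibitors to summed subunits was 0.880 and 0.996 in NC and 0.842 and 0.874 in si*Airn*, where the nearest values of the groups differed by far less than the NC libraries did from each other. These shares and ratios are descriptions with no test, and the exact permutation test of 2 against 2 libraries cannot give a two-sided p below 0.33.

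**Figure D3:**
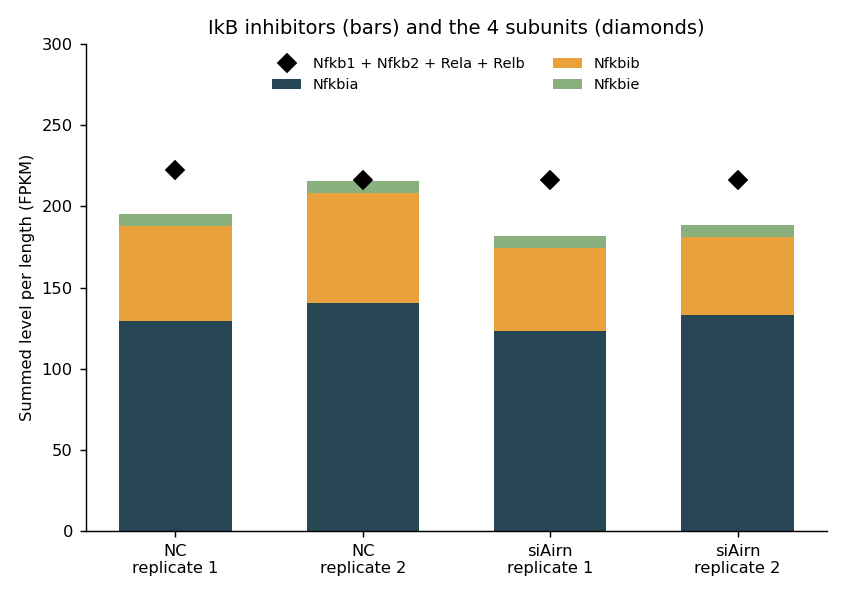
Summed level per length in FPKM (vertical axis from 0) of *Nfkbia*, *Nfkbib* and *Nfkbie* in each library as stacked bars, and of the 4 subunits as diamonds. The diamonds stay between 216 and 222 FPKM, and the orange segment of *Nfkbib* is smaller in both si*Airn* libraries.

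The third group of members acts near the receptor. *Tnfaip3* encodes A20, which removes and edits ubiquitin chains on signalling proteins such as RIPK1 and thereby ends NF-κB activation. The gene lies on the minus strand at chr10:19000910-19015657 (GRCm38), and its promoter holds the matches printed above. Its estimated counts were 1165 and 1188 in NC and 1437 and 1569 in libraries labelled si*Airn*, or 68.0 and 65.7 CPM and 79.5 and 88.7 CPM.

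Both si*Airn* values of *Tnfaip3* were higher than both NC values, by more than the distance between replicates in either group. The level was 25.8% higher (log2 fold change 0.33, SE 0.08, 95% interval 0.15 to 0.51, adjusted p = 0.0295 by edgeR and 0.0310 by DESeq2). With GC content and length corrected, the log2 fold change was 0.16 (-0.01 to 0.32, adjusted p = 0.194). The call was lost without NC replicate 1 (0.35, adjusted p = 0.123), without NC replicate 2 (0.30, adjusted p = 0.178) and without si*Airn* replicate 2 (0.25, adjusted p = 0.115), and was kept without si*Airn* replicate 1 (0.41, adjusted p = 0.0126), all by edgeR and beside the same losses over all genes as for *Nfkbib*. *Tnfaip3* had no exon under an exon of another gene and no 50-base window in another gene's transcripts.

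*Nfkbia*, whose promoter also holds a match of the stricter form, did not pass the test while *Tnfaip3* did, and the difference between them was not tested. The ratio of *Tnfaip3* to *Nfkbia* in FPKM was 0.121 and 0.108 in NC and 0.154 and 0.157 in libraries labelled si*Airn*. The ratios did not overlap between groups and were closer to each other within si*Airn* than within NC. Of the 4 members with a match, *Tnfaip3* changed, *Nfkb2* had a log2 fold change of 0.09, *Nfkbia* of -0.12 and *Nfkbie* of -0.07.

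*Birc3* encodes cIAP2, a ubiquitin ligase that acts with TRAF proteins at TNF receptors. Its levels were 69.7 and 70.9 CPM in NC and 71.2 and 84.2 CPM in libraries labelled si*Airn*. Only si*Airn* replicate 2 stood well above the NC libraries, and the fold change of 1.10 (0.953 to 1.28, adjusted p = 0.303 by edgeR) did not pass the test. Of the 50-base windows of *Birc3* transcripts, 7.56% also occur in transcripts of other genes, *Birc2*, Gm7019 and Gm43393 among them, so its counts carry that uncertainty.

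*Traf1*, an adaptor that binds cIAP proteins, was the least abundant member with 189 and 165 counts in NC and 154 and 174 in libraries labelled si*Airn*. This is 11.03 and 9.12 CPM against 8.52 and 9.84 CPM, and the groups overlapped (fold change 0.912, interval 0.706 to 1.18, adjusted p = 0.585 by edgeR). The interval of *Traf1* was the widest of the 10, so a change of the size seen in *Tnfaip3* or *Nfkbib* was less easily detected in it.

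Ordered by level per length, *Nfkbia* came first in NC with 135 ± 8.08 FPKM (SD, n = 2), followed by *Rela* (97.5 ± 6.48), *Nfkbib* (63.0 ± 6.44) and *Nfkb1* (45.6 ± 1.57). *Relb* (39.3 ± 2.64) and *Nfkb2* (37.0 ± 1.96) came next, and their libraries overlapped. *Birc3* (26.7 ± 0.318), *Tnfaip3* (15.4 ± 0.403), *Nfkbie* (7.46 ± 0.445) and *Traf1* (4.15 ± 0.714) closed the order. In NC, neighbours in this order did not overlap except for *Relb* and *Nfkb2*.

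In the libraries labelled si*Airn* the order was kept at its top and bottom. *Nfkbib* (49.8 ± 2.22 FPKM, SD, n = 2) stood level with *Nfkb1* (49.1 ± 0.346), and their libraries overlapped. *Nfkb2* (39.6 ± 0.679) stood above *Relb* (35.2 ± 0.042) with no overlap. The ratio of *Relb* to *Nfkb2* was 0.973 and 1.15 in NC and 0.898 and 0.878 in si*Airn*. *Nfkbia* was above between 95.02% and 95.38% of all genes tested, while *Traf1* was above between 29.1% and 34.7%.

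**Figure D4:**
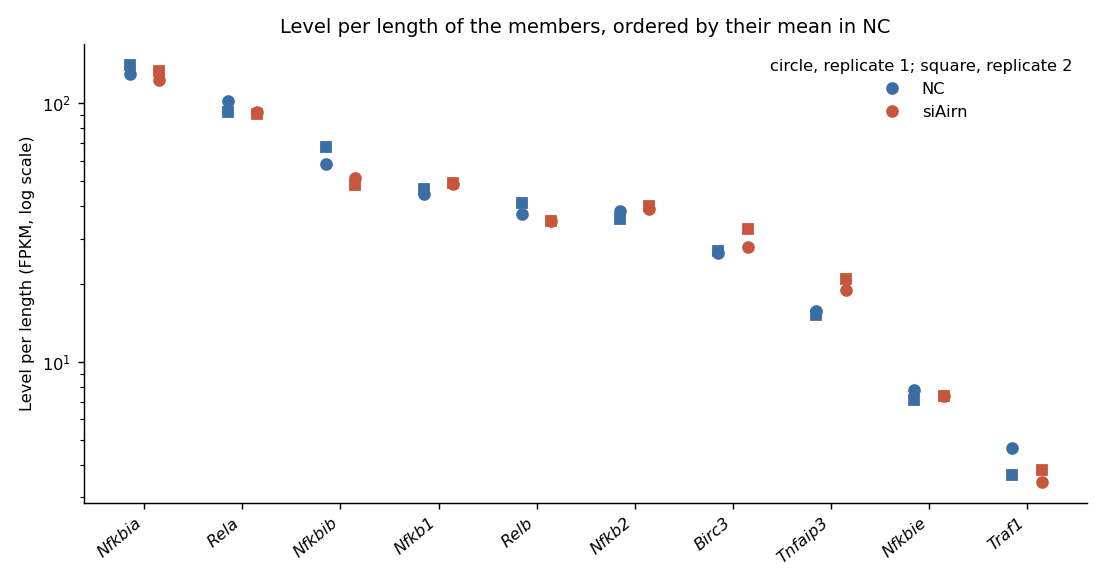
Level per length in FPKM (log axis) of the members, ordered by their NC mean, with NC in blue and si*Airn* in red, circles for replicate 1 and squares for replicate 2. The members span from *Nfkbia* above 100 FPKM to *Traf1* near 4 FPKM, and *Nfkbib* comes down to the level of *Nfkb1* in si*Airn*.

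The other genes of the pathway, 60 of which were tested, changed in 9 cases: 5 were higher and 4 lower (15%, against 16.8% of all genes), and their median log2 fold change was 0.03. Of the remaining Rel and IκB family, *Rel*, the gene for c-Rel, was higher, with 14.4 and 14.6 CPM in NC and 19.3 and 20.7 CPM in libraries labelled si*Airn* (log2 fold change 0.46, adjusted p = 0.0269 by edgeR). *Nfkbiz*, which encodes the nuclear protein IκBζ, was higher as well, with 82.8 and 93.9 CPM in NC and 106 and 133 CPM in si*Airn* (0.44, adjusted p = 0.0465). Without si*Airn* replicate 2, the log2 fold change of *Nfkbiz* was 0.26 (adjusted p = 0.118 by edgeR). *Bcl3*, the gene of another nuclear IκB protein, had a log2 fold change of -0.31 (adjusted p = 0.159) and did not pass.

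Of 11 kinases tested, 1 changed (9.09%, against 16.8% of all genes). This was *Chuk*, the gene for the catalytic subunit IKKα, which rose from 60.8 and 56.2 CPM in NC to 80.9 and 79.1 CPM (0.45, adjusted p = 0.0115 by edgeR). *Ikbkb*, for the other catalytic subunit IKKβ, stood at -0.09 (adjusted p = 0.357), and *Ikbkg*, for the regulatory subunit NEMO, at 0.25 (adjusted p = 0.0630). The IKK genes therefore held 1 gene that rose and 2 that did not pass the test.

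Of 11 receptors tested, 2 changed (18.2%, against 16.8% of all genes). *Il1rap*, the accessory chain of the IL-1 receptor, rose (0.53, adjusted p = 0.0228 by edgeR) and *Tlr2*, a receptor for bacterial lipoproteins, fell (-0.44, adjusted p = 0.0229). Among 13 receptor adaptors, 1 changed (7.69%, against the same 16.8%). This was *Tradd*, which links the TNF receptor to its complex and fell (-0.37, adjusted p = 0.0450 by edgeR). The TNF receptor gene *Tnfrsf1a* stood at -0.18 (adjusted p = 0.0812).

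Of 14 ubiquitin enzymes and partners tested, 3 changed (21.4%, against 16.8% of all genes). *Rbck1* and *Sharpin* encode HOIL-1 and SHARPIN, the accessory subunits of the complex that builds linear ubiquitin chains. *Rbck1* fell from 121 and 113 CPM in NC to 86.1 and 79.8 CPM (-0.50, adjusted p = 0.00968 by edgeR), and *Sharpin* fell from 42.1 and 41.7 CPM to 34.5 and 29.5 CPM (-0.39, adjusted p = 0.0364). *Rnf31*, for the catalytic subunit HOIP of the same complex, stood at 77.4 and 66.2 CPM in NC and 77.0 and 66.8 CPM in libraries labelled si*Airn* (0.00, 95% interval -0.24 to 0.25, adjusted p = 0.988). *Itch*, a ubiquitin ligase that acts with A20, rose (0.34, adjusted p = 0.0290).

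Of 7 nuclear limiters tested, 0 passed by edgeR or DESeq2, against 16.8% of genes tested by edgeR and 9.67% of the 18014 genes in the DESeq2 fit. By edgeR, 1 had an unadjusted p under 0.05, against 34.0% of all genes. In the corrected fit, 4 of the 60 pathway genes passed, against 7.93% of all genes. They were 3 of the 9 above, *Chuk* (0.35), *Tlr2* (-0.42) and *Rbck1* (-0.32), and *Tab3*, an adaptor of the kinase TAK1 that was not among the 9 (-0.60 in that fit). The other 6 lost the call: *Rel* (0.20, adjusted p = 0.240), *Nfkbiz* (0.42, adjusted p = 0.0711), *Il1rap* (0.39, adjusted p = 0.0702), *Sharpin* (-0.22, adjusted p = 0.203), *Tradd* (-0.17, adjusted p = 0.290) and *Itch* (0.16, adjusted p = 0.220). Without NC replicate 1, 0 of 60 passed by edgeR (17 at an unadjusted p under 0.05), against 0.286% of all genes (25.1% unadjusted). Without NC replicate 2, 0 passed (11 unadjusted), against 0.00% of all genes (22.3% unadjusted), so these counts say nothing particular to the pathway. DESeq2 on all libraries called 5 of 63 pathway genes (against 9.67% of the 18014 genes in that fit), all 5 of them among the 9 above. It did not call *Rel* (adjusted p = 0.0878), *Tlr2* (0.0592), *Tradd* (0.183) or *Sharpin* (0.0581), so that *Chuk* and *Rbck1* were called by both tools and in the corrected fit.

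**Figure D5:**
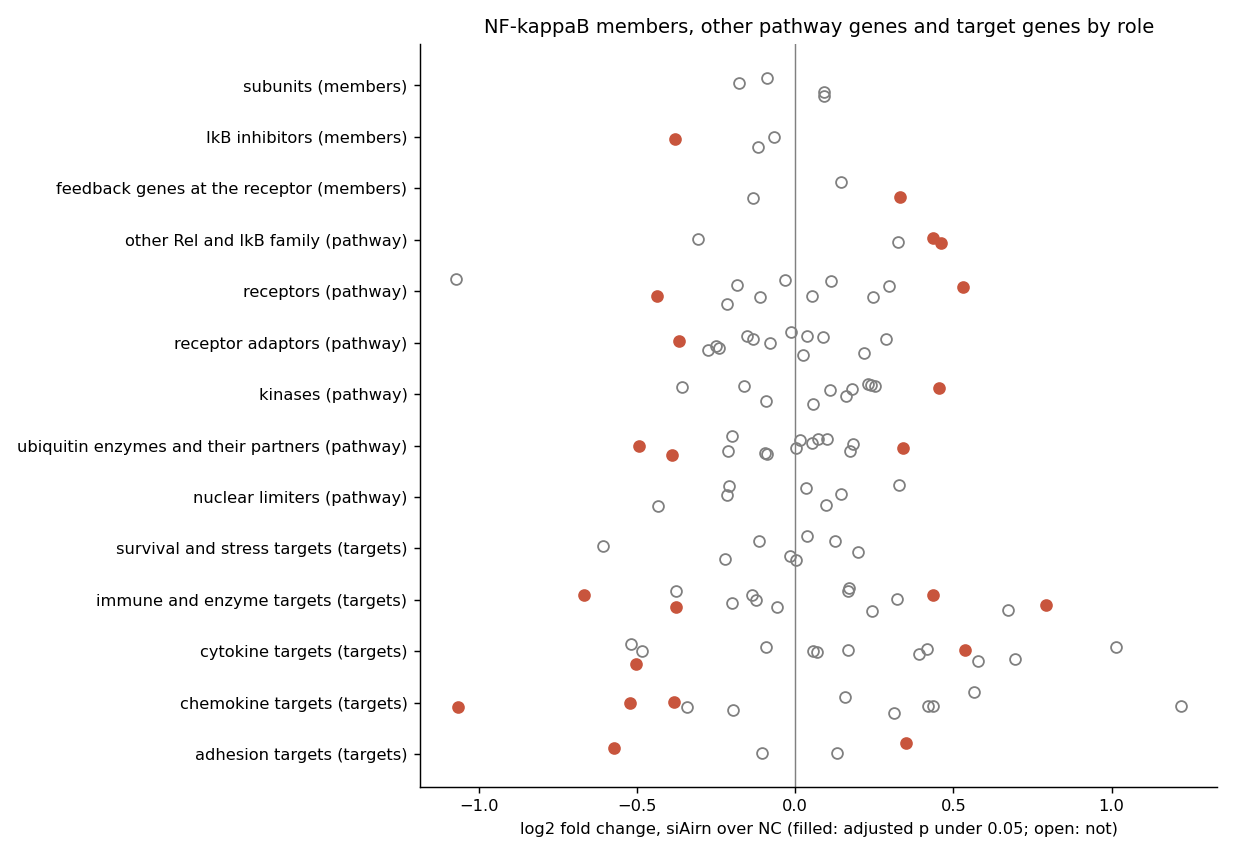
Log2 fold change (horizontal axis, libraries labelled si*Airn* over NC) of the members, the other pathway genes and the target genes, 1 point per gene tested and 1 row per role, filled where the adjusted p was under 0.05. Filled points lie on both sides of 0 among pathway and target genes, and the 8 survival and stress targets are all open.

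Genes known to be activated by NF-κB were listed as well, and 11 of 50 tested changed, 4 higher and 7 lower (22.0%, against 16.8% of all genes), with a median log2 fold change of 0.06. The targets thus lay on both sides of 0, as the members did. *Ptgs2*, which encodes the prostaglandin-forming enzyme COX-2, rose (0.79, adjusted p = 0.00946 by edgeR), as did the growth factor gene *Csf1* (0.54, adjusted p = 0.0225; 0.36, adjusted p = 0.0227, without si*Airn* replicate 2), and *Nfkbiz* belongs to this list too. *Tapbp* (-0.67, adjusted p = 0.00496) and *Tap1* (-0.38, adjusted p = 0.0229), of the antigen-loading machinery of MHC class I, and *Bmp2* (-0.50, adjusted p = 0.00683) fell.

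Of adhesion and chemokine genes, *Vcam1* rose (0.35, adjusted p = 0.0165 by edgeR), and *Selp* (-0.57), *Cxcl9* (-1.07), *Cxcl16* (-0.52) and *Ccl2* (-0.38) fell, with adjusted p from 0.00614 to 0.0134. Without NC replicate 1, 0 of the listed targets passed by edgeR (12 at an unadjusted p under 0.05), against 0.286% of all genes, and without NC replicate 2, 0 passed (16 unadjusted), against 0.00%. Without si*Airn* replicate 1, 20 of 51 passed, against 17.3%, and without the other si*Airn* library 9 of 51, against 10.4%. DESeq2 on all libraries called 12 of 53 targets, 10 of them among the 11 called by edgeR, with *C3* and *Lif* added, while *Cxcl9* was given no adjusted p. The share in that fit was 9.67% of 18014 genes, a base that includes genes without an adjusted p. Under the correction for GC content and length, 8 of the 50 targets passed (against 7.93% of all genes), all 8 of them among the 11, and the calls of *Vcam1* (0.21, adjusted p = 0.0800 by edgeR), *Tap1* (-0.30, adjusted p = 0.0547) and *Nfkbiz* were lost. Of the 8 survival and stress targets, 0 passed by edgeR, by DESeq2 or at an unadjusted p under 0.05. The shares over all genes were 16.8% by edgeR, 9.67% of the 18014 genes in the DESeq2 fit, and 34.0% at an unadjusted p under 0.05 by edgeR.

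Cell type markers moved between the groups beside these genes, and their counts are to be read against 8.56% of all genes lower and 8.27% higher. Of the 15 LSEC markers, 12 were lower and 0 higher, and their summed level was 11291 to 11544 CPM in NC and 7361 to 8214 CPM in libraries labelled si*Airn*. The most abundant were *Eng*, *Cdh5* and *Pecam1*, so the endothelial identity was present in all 4 libraries. Of 17 Kupffer cell and macrophage markers tested, 10 were lower and 1 (*Slc40a1*) higher. Their sums were 358 to 430 CPM in NC and 264 to 305 CPM in si*Airn*. Among the most abundant, *Lyz2* (119 and 131 against 93.8 and 75.0 CPM) and *Cd68* (38.9 and 53.2 against 27.9 and 28.9 CPM) were lower. *Slc40a1*, more abundant than *Cd68*, was higher (64.1 and 56.2 against 83.9 and 72.8 CPM). Stellate cell and fibroblast markers were higher in 4 of 12 and lower in 0, with overlapping sums of 1732 to 2100 CPM and 2023 to 2620 CPM and *Tagln* the most abundant. Hepatocyte markers were higher in 2 of 10 and lower in 0 (639 to 805 against 895 to 1159 CPM, *Alb* the most abundant). Lymphocyte markers (*Ptprc* the most abundant), neutrophil and monocyte markers (*Ly6c2*) and cholangiocyte markers (*Krt19*) had sums between 5.05 and 34.1 CPM, with 0 called by edgeR or DESeq2 and 1, 0 and 1 genes at an unadjusted p under 0.05. No marker with a row in the table was at 0 in all libraries. The part of these shifts in the values of *Tnfaip3*, *Nfkbib* and the other genes was not tested, and in bulk RNA fewer cells of a type and less RNA per cell cannot be told apart.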

How the data were processed

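RNA-seq of 4 libraries was grouped by the labels (NC, si*Airn*, 2 each). The authors deposited estimated counts per gene, which were not normalized, and a second value per library that was read as FPKM computed by the authors. The submitters' processing notes name BWA, Bowtie2 and RSEM without roles and the build hg19, a human build, although the genes are those of mouse. Coordinates are therefore those of GENCODE M21 (GRCm38). Estimated counts were rounded to whole numbers, and edgeR 4.0.16 in R 4.3.3 was used (filterByExpr, TMM factors from 0.985 to 1.02, glmQLFit and glmQLFTest without a covariate). The scripts were tested on simulated data whose planted changes were all larger than those of *Nfkbib* and *Tnfaip3*, so changes of that size were not tried. Alternatives were DESeq2 1.42.0, upper-quartile scaling, other count filters, the replicate number as a block, and leaving out each library. Others were limma 3.58.1 on log2(FPKM + 1) and log2(FPKM + 0.1) for genes with a mean of at least 1 FPKM. Further fits used spline offsets (5 degrees of freedom) for GC content and length of the longest transcript, or for length alone. For length alone, the length of each gene was estimated from its counts and FPKM, over all 13628 genes tested. Leaving out a library left 1 in its group, so the spread in those fits came from the libraries of the other group alone. GC content was known for 94.7% of the genes tested. The text names all 10 members, every pathway or target gene with an adjusted p under 0.05 (at most 4 per role), and the most abundant genes of each marker list. *Bcl3*, *Ikbkb*, *Ikbkg*, *Tnfrsf1a*, *Rnf31*, *Tab3*, *C3*, *Lif*, *Psd* and *Sirt2* were named after their values were seen. The members and lists were chosen with earlier results of these data known.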

Additional observations from a re-analysis of the deposited data

How the results depend on the processing

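The 2 calls among the 10 members, *Nfkbib* and *Tnfaip3*, were made with DESeq2, upper-quartile scaling, no count filter, at least 10 counts in every library and edgeR's likelihood-ratio test. With limma 1 member was called at either pseudocount (*Nfkbib* at -0.329 and -0.334, adjusted p of 0.0534 and 0.0540), and with the study's criterion (fold change over 1.4), corrected GC content and length, and corrected length alone 0 were. Without 1 library at a time, 0 to 2 members, 0 to 2410 genes in all, 0 to 12 pathway genes and 0 to 20 target genes were called. Over these fits the log2 fold change ran from -0.48 to -0.27 for *Nfkbib* and from 0.25 to 0.41 for *Tnfaip3*. The number of genes called was 2294 in the main test, 1742 with DESeq2, 3140 with the likelihood-ratio test, 1743 and 1747 with limma, 1024 with GC content and length corrected, 1292 with length alone corrected and 1358 by the study's criterion. Pathway genes numbered 9 in the main test, 5 with DESeq2, 15 with the likelihood-ratio test, 4 after either correction and 2 by the study's criterion. With GC content and length corrected the sign turned for *Nfkb1* (-0.00056), *Rela* (0.0586), *Nfkbia* (0.0438) and *Nfkbie* (0.0392), and without NC replicate 1 for *Nfkbie* (0.0160, from a range of -0.153 to 0.0160 without 1 library) and *Traf1* (0.0058, from a range of -0.267 to 0.0058). The causes were not tested.

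The replicate numbers pair nothing in the labels, and the deviations of same-numbered libraries had a correlation of 0.233. With the replicate number as a block, 3 members were called (*Relb* with an adjusted p of 0.031 by edgeR). The same fit called 4841 of 13628 genes, 26 of 60 pathway genes and 24 of 50 target genes. With the block and the correction together, 3 members, 4070 genes, 20 pathway genes and 25 target genes were called. The members were *Nfkb2*, *Nfkbib* and *Tnfaip3*, with an adjusted p of 0.00379, 0.0169 and 0.0396 by edgeR. The signs turned for *Nfkb1* (-0.00018), *Rela* (0.0597), *Nfkbia* (0.0435) and *Nfkbie* (0.0400).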
